A study of Mus musculus with 6 samples.

Results

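Type I interferon antiviral effector genes are the genes that cells switch on after sensing a virus or interferon and whose products bind, cut, trap or tag viral nucleic acids and proteins. They were taken as the rows of the deposited gene table whose gene name is in a list of 37 symbols. By symbol 35 of the 37 were found, among 17382 genes listed, and all 35 were among the 13722 genes tested. Ifit3b was found only under its older symbol I830012O16Rik, at an overlapping RefSeq position, and is given apart from the counts. Ifi44l was not analysed here. The 35 comprise 3 Ifit genes, 6 Oas genes, 2 Mx genes, 3 genes of the Ifi200 family, 3 RNA sensors, 3 genes of the Isg15 system and 15 other effectors.

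The study compared bulk RNA of bone marrow cells, labelled myeloid cells, from C57BL/6 mice aged 2 months. The marrow had spent 3 days in culture with 10% FBS and mouse M-CSF, which drives growth of the macrophage lineage, at 40 ng/mL. The group labelled CKO (n = 3) carried PD-L1 flox/flox alleles and lysozyme-Cre, a recombinase driven by the lysozyme gene, which is active in macrophages, monocytes and neutrophils. The group labelled WT (n = 3) came from littermates. They are given as PD-L1 flox/flox, so both groups carried the floxed alleles. The design states biological triplicates, and whether any animals were pooled is not given in the sources used here. No virus, interferon or other stimulus is named in the labels.

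Type I interferons, interferon beta and the interferon alphas, bind the receptor made of Ifnar1 and Ifnar2. The receptor's kinases Jak1 and Tyk2 phosphorylate Stat2, which acts with Irf9 at a DNA element called the interferon-stimulated response element (ISRE) in front of effector genes. Macrophages keep part of this programme on without infection through low interferon production, and Irf7, itself induced, amplifies it.

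Promoter sequence was available for 27 of the 37 named genes, from RefSeq on GRCm38.p6. In the 250 bases before the start, 14 of the 27 held the ISRE core, GAAA and GAAA with any 2 bases between them, on either strand, with overlapping matches counted. The same core stood in 2.98% of 32851 promoters and in at least 1 promoter of 3.46% of 27025 genes. The GAS element TTCNNNGAA, linked chiefly to interferon gamma and searched on either strand too, stood in 4 of the 27 and in 8.13% of all genes. A match describes the letters and is no evidence of binding. The lines below give the last 200 bases before the start, 5′ to 3′ on the gene's own strand, in capitals where the core or its reverse complement, TTTC and TTTC with any 2 bases between, lies. Ifit1, Ifit3 and Ifit3b are shown as neighbours in 1 gene cluster, Isg15 for its overlapping run of cores, Oas1a and Oas1g as a near-identical pair with cores right at the start, Rsad2 for its single core, and Ifi44 because its groups alone did not overlap although its window holds no core.
Ifit1, chr19:34640689-34640888, plus strand: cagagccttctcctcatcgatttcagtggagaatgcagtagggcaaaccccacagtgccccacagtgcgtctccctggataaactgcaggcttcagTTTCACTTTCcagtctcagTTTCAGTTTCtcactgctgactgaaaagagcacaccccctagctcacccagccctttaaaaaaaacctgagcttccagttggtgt
Ifit3, chr19:34583329-34583528, plus strand: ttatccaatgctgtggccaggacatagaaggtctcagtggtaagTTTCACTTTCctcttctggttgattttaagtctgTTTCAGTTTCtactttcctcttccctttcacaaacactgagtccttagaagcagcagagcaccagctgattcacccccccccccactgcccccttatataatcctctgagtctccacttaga
Ifit3b, chr19:34607757-34607956, plus strand: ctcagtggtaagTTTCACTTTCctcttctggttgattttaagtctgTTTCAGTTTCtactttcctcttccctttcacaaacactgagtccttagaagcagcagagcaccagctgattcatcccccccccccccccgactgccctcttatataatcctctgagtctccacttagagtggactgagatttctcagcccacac
Isg15, chr4:156200819-156201018, minus strand: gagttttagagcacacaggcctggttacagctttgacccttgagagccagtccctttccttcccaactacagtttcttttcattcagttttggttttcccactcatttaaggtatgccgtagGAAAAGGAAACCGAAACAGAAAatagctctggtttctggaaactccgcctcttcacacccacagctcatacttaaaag
Oas1a, chr5:120907526-120907725, minus strand: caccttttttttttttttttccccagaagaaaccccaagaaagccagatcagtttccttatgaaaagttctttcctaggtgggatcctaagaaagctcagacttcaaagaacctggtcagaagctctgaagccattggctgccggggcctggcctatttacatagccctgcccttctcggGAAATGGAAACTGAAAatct
Oas1g, chr5:120887614-120887813, minus strand: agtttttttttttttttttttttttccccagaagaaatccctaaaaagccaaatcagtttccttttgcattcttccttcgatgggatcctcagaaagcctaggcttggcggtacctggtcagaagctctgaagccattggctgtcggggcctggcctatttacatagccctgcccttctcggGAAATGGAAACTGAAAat
Rsad2, chr12:26456453-26456652, minus strand: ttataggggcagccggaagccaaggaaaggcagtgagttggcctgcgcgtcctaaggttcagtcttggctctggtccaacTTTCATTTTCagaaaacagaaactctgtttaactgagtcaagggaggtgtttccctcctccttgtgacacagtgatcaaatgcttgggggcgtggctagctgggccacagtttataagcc
Ifi44, chr3:151749911-151750110, minus strand: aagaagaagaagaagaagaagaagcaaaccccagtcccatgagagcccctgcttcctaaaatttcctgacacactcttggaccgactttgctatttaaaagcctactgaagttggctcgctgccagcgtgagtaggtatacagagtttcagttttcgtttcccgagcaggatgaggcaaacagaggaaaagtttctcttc
The Ifit3 and Ifit3b windows were 99.4% identical over 168 aligned bases, and those of Oas1a and Oas1g 89.5% over 191. Of the 35 measured genes, 13 had a core, with a median log2 difference between the groups of 0.33. A median of 0.29 was found for the 12 whose window held none, among them Ifit2, Ifi44, Oasl2 and Ddx58, and 10 had no promoter in the table. These 2 medians are descriptions and were not tested.

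All levels below are in TPM (reads scaled by gene length and by library total), and values are listed in the order of libraries 1, 2 and 3. Differences are CKO minus WT on log2(TPM + 0.1) with the SE of limma's fit over all tested genes. The libraries held between 52.4 and 77.3 times 1000000 reads each and had 11525 to 11680 genes at 1 TPM or more. Cd274, which encodes PD-L1, checks the labels: it stood at 19.3, 19.2 and 29.2 TPM in CKO and at 17.9, 15.5 and 23.7 TPM in WT, with overlapping groups (log2 difference 0.24 ± 0.22). It was thus not lower in the libraries labelled CKO. Lyz2, the lysozyme M gene, stood at 19100, 19354 and 13232 TPM in CKO and at 26707, 27493 and 40358 TPM in WT, so the groups were apart and followed the labels. Its log2 difference was -0.87 ± 0.27 (limma, adjusted p = 1.0; adjusted p of 0.0345 in the authors' deposited table). For Cd274 the table holds 1 value over the whole gene, and which exons are floxed is not given in the sources used here, so every direction below rests on the labels. The first principal component of all genes, 44.3% of the variance, set CKO 3, WT 1 and WT 2 (scores of 19.1 to 31.8) against CKO 1, CKO 2 and WT 3 (scores of -30.1 to -17.4) and so did not follow the labels. Each subfamily's result is therefore also given within these sides, where CKO 1 and CKO 2 are compared with WT 3, and CKO 3 with WT 1 and WT 2. These are values of 3 libraries with no test. With CKO 3 and WT 3 both left out, genotype and side coincide and cannot be told apart.

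No effector gene passed the test between the groups. By limma with Benjamini-Hochberg adjustment, 0 of 35 were called higher or lower at an adjusted p under 0.05, where 0% of the 13722 genes were called higher and 0% lower. By the authors' deposited table, none of the 35 (0 of 35) reached an adjusted p under 0.05, against 0.242% of all listed genes higher and 0.023% lower. By limma at an unadjusted p under 0.05, 2 members were higher in CKO (Zbp1 and Ifi44) beside 1.25% of all genes. At that level 0 were lower, where 2.18% of all genes passed in either direction. The authors' likelihood ratio test gave an unadjusted p under 0.05 to more members, all higher in CKO. They were Zbp1 (0.00125), Ifi44 (0.0017), Ifit2 (0.011), Isg15 (0.0335), Ifi204 (0.0376), Rsad2 (0.0458) and Cmpk2 (0.0474). The share of all listed genes at that level of their test was not computed. Whether members passed it more often than other genes is therefore not known. The groups did not overlap for 1 member, Ifi44, higher in CKO, against 2.84% of all genes, and for 0 lower, against 2.27%. Even so, 33 of the 35 differences were above 0, against 51.1% of all genes, and the median difference was 0.29 against 0.00. The count above 0 was 28 without CKO 3 and 25 without WT 2, and with each library left out in turn the median ran from 0.15 to 0.43. The spread among replicates was wide: the median residual SD of a member was 0.36 on the log2 scale, against 0.19 over all genes. These genes share their libraries, so the count of positive differences is no count of independent results. In bulk RNA, fewer cells of a type and less RNA per cell cannot be told apart.

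**Figure D1:**
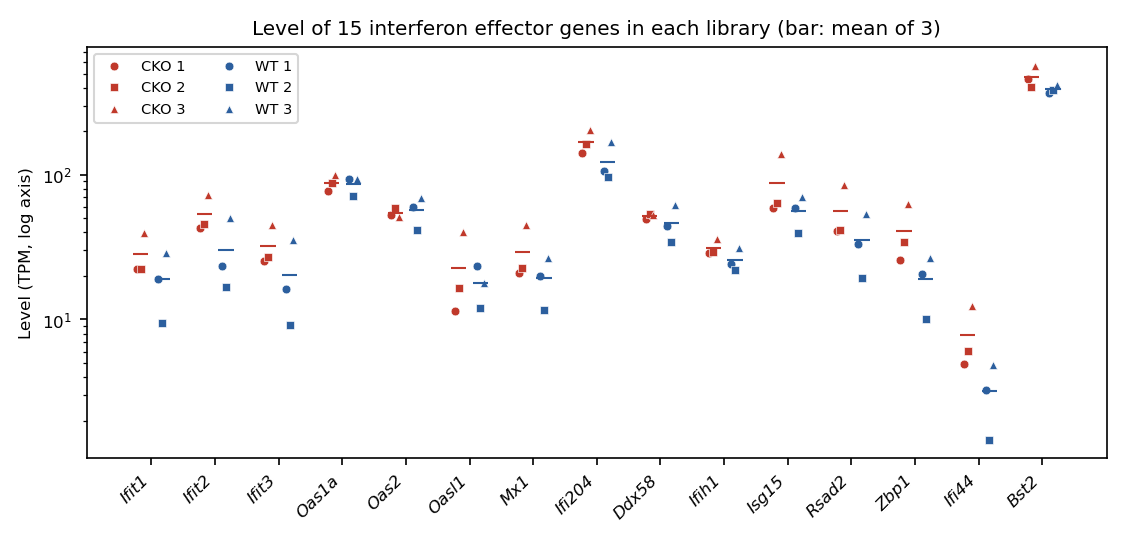
Level in TPM on a log axis of 15 effector genes in each of the 6 libraries, with CKO in red, WT in blue, a symbol per replicate number and a bar at the mean of 3. CKO 3 is the upper red point for most genes, WT 2 is the lowest blue point for 14 of the 15, Bst2 being the exception, and only Ifi44 has all red points above all blue ones.

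The Ifit proteins bind viral RNA and block its translation. Their genes lie side by side at chr19:34550694-34650009 on mm10, in the order Ifit2, Ifit3, Ifit3b, Ifit1, all on the plus strand, 5.16 to 5.25 Mb from Cd274 on the same chromosome. Ifit1 stood at 22.4, 22.4 and 39.8 TPM in CKO and at 18.9, 9.52 and 28.8 TPM in WT. Ifit2 stood at 43.0, 45.3 and 72.4 TPM in CKO and at 23.3, 16.7 and 50.2 TPM in WT. For Ifit3 the levels were 25.3, 26.9 and 44.6 TPM in CKO and 16.3, 9.20 and 35.2 TPM in WT. In all 3 CKO 3 was highest and WT 3 came next, above CKO 1 and CKO 2, so the groups overlapped, while WT 1 and then WT 2 were lowest. The log2 differences were 0.65 ± 0.43 for Ifit1, 0.95 ± 0.42 for Ifit2 and 0.84 ± 0.48 for Ifit3, and none passed. The median of the 3 was 0.84; within the sides it was -0.36 for CKO 1 and 2 against WT 3 and 1.86 for CKO 3 against WT 1 and 2. It was 0.38 without WT 2, 0.58 without CKO 3 and 1.34 without WT 3. Ifit3b read 4.78, 5.07 and 6.65 TPM in CKO and 3.05, 1.96 and 5.78 TPM in WT (log2 difference 0.72 ± 0.38), again with overlap at WT 3. Its transcript matches that of Ifit3 at 98% of 1697 aligned bases, so reads of the pair may be shared and their separate levels are uncertain.

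Oas enzymes make short oligoadenylates on double-stranded RNA, which activate the nuclease RNase L. Their median difference was the smallest of the subfamilies, at 0.13. Oas1a was at 76.7, 87.9 and 100.1 TPM in CKO and at 93.5, 70.9 and 92.9 TPM in WT. Its neighbour Oas1g was at 16.5, 23.5 and 31.0 TPM in CKO and at 24.0, 15.8 and 23.3 TPM in WT. Both had a difference well inside their SE, 0.04 ± 0.15 and 0.15 ± 0.26, with the groups interleaved, and their transcripts are 97.8% identical over 1857 bases, so the split of reads between them is uncertain. Oas2 was the only member of the family with a difference below 0, at -0.03 ± 0.19: it read 52.9, 59.4 and 51.4 TPM in CKO and 59.7, 41.5 and 68.6 TPM in WT, with WT 3 highest. Oas3, the longest enzyme of the family, read 39.2, 44.2 and 72.4 TPM in CKO and 50.1, 41.5 and 48.4 TPM in WT. Its difference of 0.10 ± 0.23 came with CKO 3 alone above all WT libraries and CKO 1 lowest of all.

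The Oas-like genes encode proteins with ubiquitin-like domains; Oasl1 represses translation of Irf7. Oasl1 stood at 11.5, 16.4 and 39.9 TPM in CKO and at 23.5, 11.9 and 17.9 TPM in WT, so CKO 3 was the highest and CKO 1 the lowest of the 6 (0.19 ± 0.47). Oasl2 was the most abundant of the family on this length-scaled measure, at 90.9, 109 and 147 TPM in CKO and at 106, 64.3 and 117 TPM in WT (0.29 ± 0.27). The median difference over the 6 Oas genes, 0.13, became -0.23 and 0.67 within the sides. Without CKO 3 it was -0.060 and without WT 2 it was -0.054, so its sign rests on these libraries.

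Mx proteins are dynamin-like GTPases that block viral ribonucleoproteins; C57BL/6 mice, as most laboratory strains, carry an Mx1 allele that makes no working protein. Mx1 RNA was measured all the same, at 21.0, 22.8 and 44.6 TPM in CKO and at 20.0, 11.7 and 26.7 TPM in WT. Mx2, on the opposite strand of chromosome 16, stood at 7.86, 6.50 and 10.4 TPM in CKO and at 6.66, 4.54 and 9.01 TPM in WT. Both were highest in CKO 3 and lowest in WT 2, and WT 3 was above CKO 1 and CKO 2 for each. The log2 differences were 0.59 ± 0.39 and 0.32 ± 0.28; their median of 0.45 became -0.31 and 1.22 within the sides.

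The Ifi200 genes encode nuclear DNA-binding proteins with a pyrin domain and lie together on chromosome 1. Ifi204, which senses DNA and acts in macrophage differentiation, was at 141, 163 and 202 TPM in CKO and at 106, 96.2 and 168 TPM in WT. Ifi203 was at 82.4, 83.9 and 77.8 TPM in CKO and at 60.5, 52.2 and 92.3 TPM in WT. Ifi205 was the lowest-expressed member of all 35, at 1.53, 1.76 and 3.55 TPM in CKO and at 1.35, 0.618 and 1.82 TPM in WT, where the lowest value stands for 31 reads. In each, WT 1 and WT 2 lay below all CKO libraries and WT 3 lay among or above them. The differences were 0.48 ± 0.23 for Ifi204, 0.29 ± 0.20 for Ifi203 and 0.82 ± 0.45 for Ifi205, and within the sides the family's median was -0.15 and 1.0. Transcripts of Ifi204 align with those of Ifi203 and Ifi205 at 90.4% and 91.8% identity, so some reads may be shared.

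The RNA sensors had the lowest median ratio of highest to lowest library among the subfamilies, at 1.63. Ddx58, which encodes RIG-I, the sensor of RNA with a free triphosphate end, read 49.7, 53.7 and 52.6 TPM in CKO and 44.3, 34.3 and 61.4 TPM in WT. Ifih1, which encodes MDA5, the sensor of long double-stranded RNA, read 28.9, 29.1 and 35.9 TPM in CKO and 24.1, 22.0 and 31.1 TPM in WT. Dhx58, which encodes LGP2, their regulator, read 48.5, 50.1 and 62.2 TPM in CKO and 52.6, 43.2 and 55.3 TPM in WT. The groups overlapped for all 3, since WT 3 exceeded CKO 1 and CKO 2 in each. Log2 differences were 0.20 ± 0.20, 0.29 ± 0.16 and 0.09 ± 0.14, and their median of 0.20 was -0.17 and 0.43 within the sides. That median was -0.0062 without WT 2 and 0.41 without WT 3.

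In the Isg15 system, Isg15 is a ubiquitin-like tag, Herc6 its main ligase in mice, and Usp18 the protease that removes it and also dampens the interferon receptor. Isg15 stood at 59.1, 63.8 and 139.9 TPM in CKO and at 58.7, 39.9 and 69.7 TPM in WT. Usp18 stood at 20.9, 23.2 and 47.2 TPM in CKO and at 29.9, 17.4 and 28.6 TPM in WT. Herc6 stood at 19.5, 20.3 and 24.4 TPM in CKO and at 15.3, 14.5 and 20.7 TPM in WT. For Isg15 and Usp18 CKO 3 was far above the other 5 libraries, and for Usp18 both WT 1 and WT 3 exceeded CKO 1 and CKO 2. The differences were 0.56 ± 0.37 for Isg15, 0.20 ± 0.35 for Usp18 and 0.35 ± 0.16 for Herc6. The median of the 3, 0.35, became -0.18 and 1.04 within the sides. For Isg15 the difference was 0.17 without CKO 3.

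Among the other effectors, Zbp1 and Ifi44 had the largest differences of all 35. Zbp1, a sensor of Z-form nucleic acid that triggers cell death, was at 25.9, 34.5 and 62.8 TPM in CKO and at 20.5, 10.2 and 26.7 TPM in WT. Only the pair of WT 3 and CKO 1 kept the groups from separating. Its difference was 1.11 ± 0.44 (limma, unadjusted p = 0.0423, adjusted p = 1.0), and the authors' deposited table gives it an adjusted p of 0.283. Ifi44, an interferon-induced protein of the cytoplasm, was at 4.94, 6.02 and 12.4 TPM in CKO and at 3.23, 1.48 and 4.86 TPM in WT, with a ratio of 8.40 between its highest and lowest libraries. Here CKO 1 stood just above WT 3, and the groups overlapped once TPM were scaled by median-of-ratios size factors. The difference was 1.30 ± 0.50 (limma, unadjusted p = 0.038, adjusted p = 1.0; adjusted p of 0.333 in the authors' deposited table). Without CKO 3 it was 0.90 and without WT 2 it was 0.84.

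Rsad2 and Cmpk2 are divergent neighbours on chromosome 12, with 12.8 kb between them; Rsad2 (viperin) makes a chain-terminating nucleotide and Cmpk2 is a mitochondrial nucleotide kinase. Rsad2 was at 41.1, 41.2 and 85.4 TPM in CKO and at 33.0, 19.3 and 53.6 TPM in WT. Cmpk2 was at 28.6, 29.9 and 57.0 TPM in CKO and at 26.3, 17.9 and 34.7 TPM in WT. The order of the 6 libraries was the same in both genes, CKO 3, WT 3, CKO 2, CKO 1, WT 1 and WT 2. Their differences were 0.69 ± 0.43 and 0.53 ± 0.34, and within the sides -0.38 and 1.76 for Rsad2 and -0.24 and 1.39 for Cmpk2. Isg20, an exonuclease, ran between 3.29 and 6.30 TPM (0.17 ± 0.24).

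Bst2, the membrane tether that holds budding virions on the cell, was the most abundant effector on this scale, at 462, 402 and 567 TPM in CKO and at 369, 384 and 419.9 TPM in WT. Only WT 3 above CKO 2 kept the groups together, and WT 1 rather than WT 2 was lowest. Bst2 had one of the narrowest spreads, with a difference of 0.27 ± 0.14 and values of 0.04 and 0.59 within the sides. Ifi27l2a, a small mitochondrial protein's gene, was the other member below 0: it read 240.0, 298 and 286 TPM in CKO and 402, 194 and 334 TPM in WT. WT held both its highest and its lowest library, and the difference was -0.12 ± 0.26.

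Of the nuclear and chromatin-linked effectors, Sp100, a nuclear body protein, was at 169, 182 and 180.0 TPM in CKO and at 153, 136 and 189 TPM in WT. Parp14, an ADP-ribosyltransferase, was at 117, 119.8 and 161 TPM in CKO and at 93.6, 89.6 and 128 TPM in WT. In both, WT 1 and WT 2 were below all CKO libraries and WT 3 was among or above them (0.16 ± 0.13 and 0.36 ± 0.18). The PHD finger genes Phf11b and Phf11d adjoin on chromosome 14 and are 92.8% identical over 1139 transcript bases. Phf11b was at 33.4, 41.0 and 65.5 TPM in CKO and at 36.9, 31.9 and 35.9 TPM in WT. Phf11d was at 16.5, 18.8 and 31.0 TPM in CKO and at 18.8, 14.7 and 17.8 TPM in WT. CKO 3 stood well above the other 5 libraries, which lay close together (0.36 ± 0.24 and 0.32 ± 0.24).

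Trim30a, a ubiquitin ligase family member that restrains NF-kB signalling, was at 142, 152 and 184 TPM in CKO and at 135, 116 and 157 TPM in WT. Its neighbour Trim30d, 88.4% identical over 3018 transcript bases, was at 31.7, 31.1 and 40.0 TPM in CKO and at 26.2, 21.4 and 35 TPM in WT. Both were highest in CKO 3, lowest in WT 2 and had WT 3 above CKO 1 and CKO 2 (0.23 ± 0.15 and 0.33 ± 0.20). Rtp4, a receptor chaperone with antiviral action, was at 95.2, 121 and 134 TPM in CKO and at 118, 77.8 and 121 TPM in WT. Xaf1, which binds the apoptosis inhibitor XIAP, was at 21.1, 23.1 and 29.3 TPM in CKO and at 23.2, 17.1 and 24.0 TPM in WT. In each of this pair both WT 1 and WT 3 were above CKO 1, and the differences were 0.16 ± 0.21 and 0.19 ± 0.18. Over the 15 other effectors the median difference was 0.32, with -0.11 and 0.75 within the sides.

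**Figure D2:**
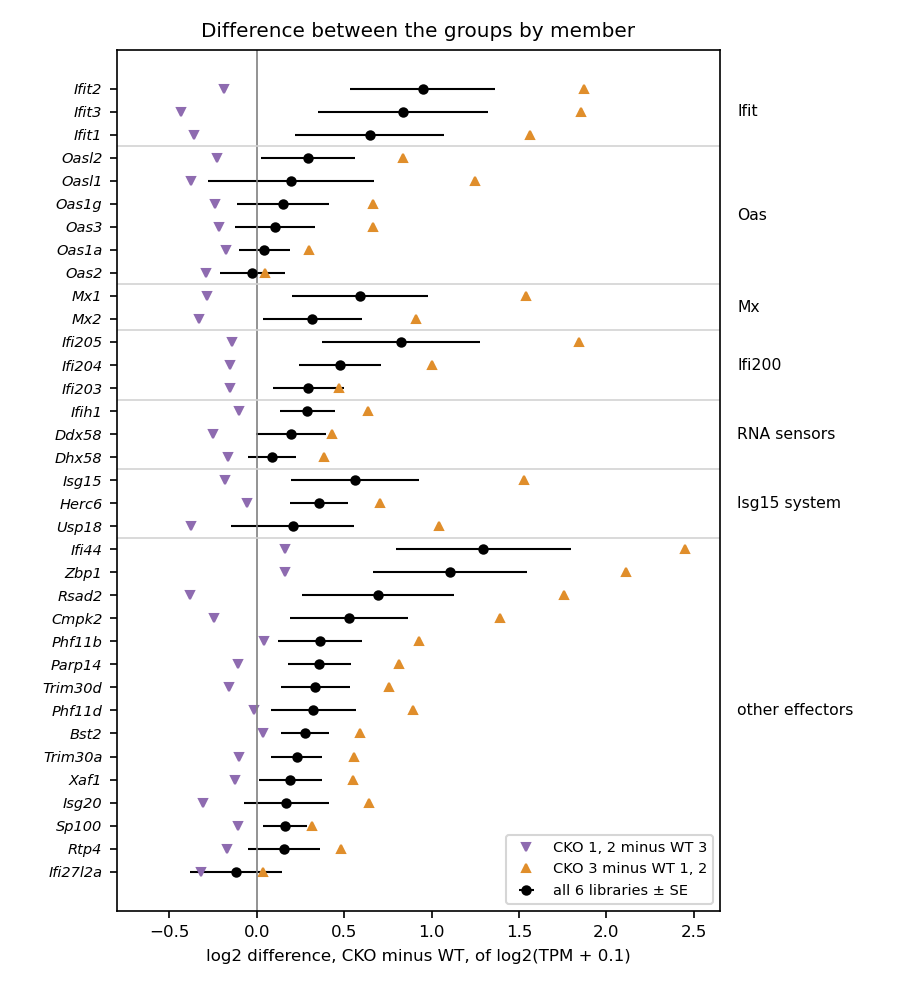
Log2 difference, CKO minus WT, of each of the 35 members by subfamily, with all 6 libraries and the SE of limma's fit as black points and bars, CKO 1 and 2 minus WT 3 as purple triangles and CKO 3 minus WT 1 and 2 as orange triangles. The orange values lie above 0 for all 35 and the purple values below 0 for 31.

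The order of the libraries was similar across the subfamilies. CKO 3 had the highest level of the 6 libraries for 30 of the 35 members (85.7%), against 19.5% of all genes tested. The exceptions were Oas2, Ifi203, Ddx58 and Sp100, highest in WT 3, and Ifi27l2a, highest in WT 1. WT 2 had the lowest level for 32 (91.4%), against 15.1% of all genes; the exceptions were Oas3 and Oasl1, lowest in CKO 1, and Bst2, lowest in WT 1. WT 3 lay above both CKO 1 and CKO 2 for 28 members, where 24.9% of all genes did so. It lay below both for 1 member, against 45.4% of all genes. These shares describe 35 genes that vary together in 6 libraries and were not tested.

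**Figure D3:**
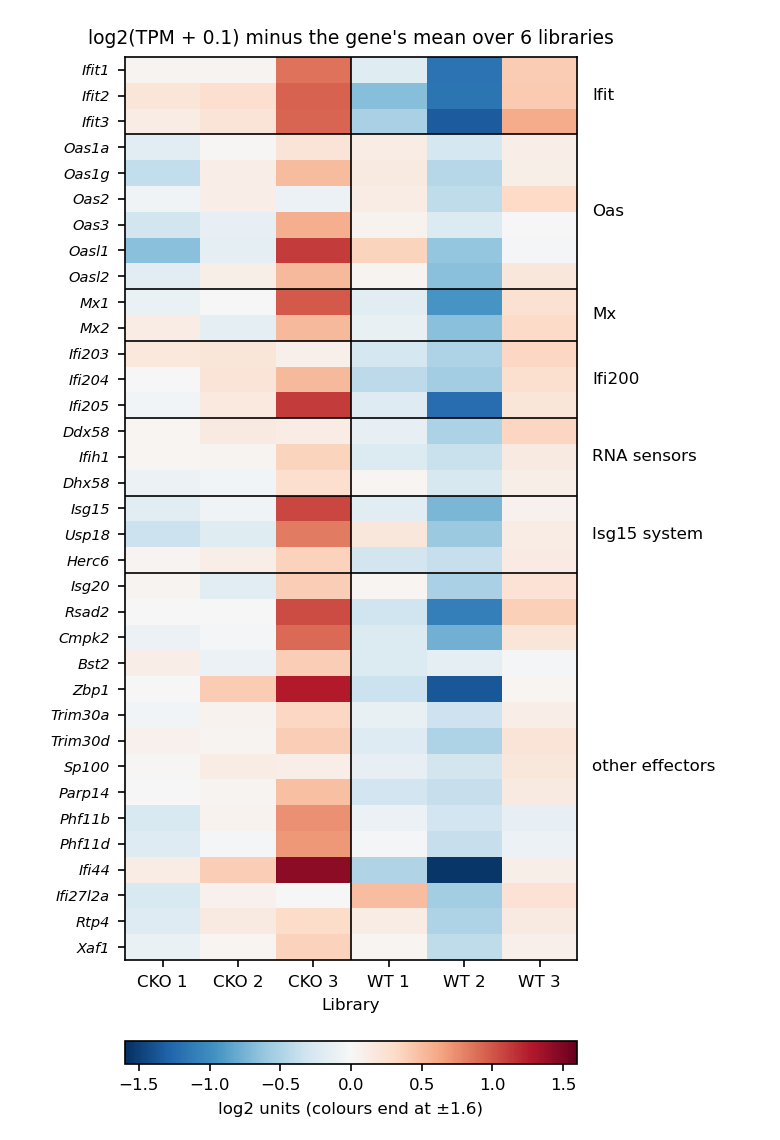
Level of the 35 members in the 6 libraries as log2(TPM + 0.1) minus the gene's mean, by subfamily, with red above and blue below the mean. The CKO 3 column is red and the WT 2 column blue in nearly every row, and WT 3 is mostly redder than CKO 1 and CKO 2.

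**Figure D4:**
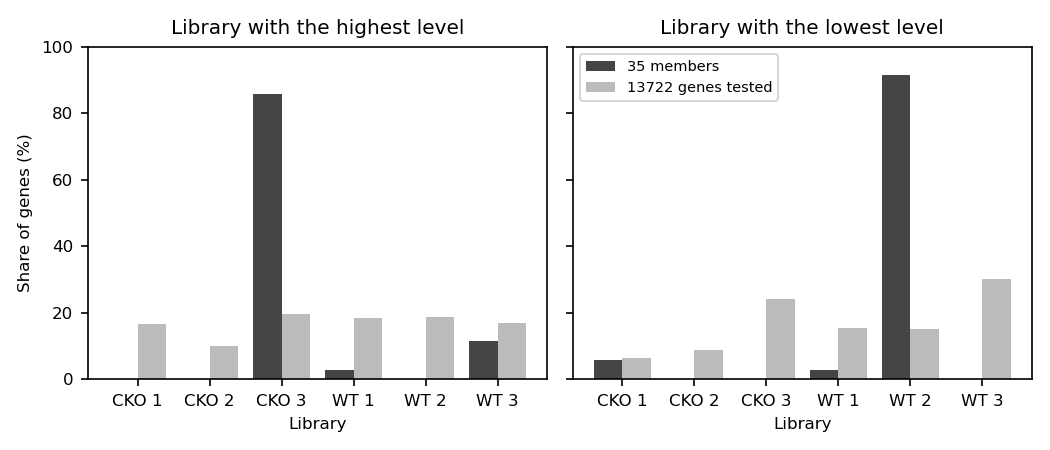
Share of genes, in percent, for which each library has the highest (left) or lowest (right) level, with the 35 members in dark and the 13722 tested genes in light bars. CKO 3 is highest for 85.7% of the members and WT 2 lowest for 91.4%.

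Within the sides, the difference was below 0 for 31 of the 35 members where CKO 1 and CKO 2 were set against WT 3, with a median of -0.18. The 4 exceptions were Zbp1 and Ifi44 (both 0.16) and Bst2 and Phf11b (both 0.04). Where CKO 3 was set against WT 1 and WT 2, all 35 were above 0, with a median of 0.82. Of all 13722 genes, 5343 were below 0 in the first comparison and 6198 above 0 in the second. The medians over all genes were 0.03 and -0.02. The direction between the labelled groups thus differed between the sides for 31 of the 35, which was not tested. Without CKO 3 and WT 3, limma called 5 members higher and 0 lower at an adjusted p below 0.05, beside 5.06% and 5.15% of all genes. They were Ifit2 (log2 difference 1.16), Ifi203 (0.56), Ifi204 (0.58), Parp14 (0.37) and Herc6 (0.41), and 20 members had groups apart and higher, beside 29.8% of all genes. In that fit Oas3, Oasl1, Usp18 and Ifi27l2a were below 0, at -0.13, -0.28, -0.054 and -0.064. Leaving out WT 3 alone gave 20 members with groups apart, beside 10.7% of all genes, and 0 called. Leaving out CKO 1 gave 5 apart and higher, beside 4.78%, and leaving out CKO 2 gave 2, beside 5.42%. Without WT 2 there were 1 apart and higher, beside 7.04%, and 2 apart and lower, beside 4.83%.

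The subfamilies differed in how widely their members varied. The ratio of a member's highest to lowest library ran from 1.39 (Sp100) to 8.40 (Ifi44), with a median of 2.05, against 1.38 over all genes. The 3 Ifit genes had ratios of 4.18 to 4.85. The 3 RNA sensors had ratios of 1.44 to 1.79, and the Oas genes ran from 1.41 (Oas1a) to 3.46 (Oasl1). Members with an ISRE core in their promoter had a median ratio of 1.96 and those without one 2.02.

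The genes that carry the interferon signal varied over a narrower range, with a median ratio of highest to lowest library of 1.35 over the 12 receptor and signalling genes. Of 18 interferon genes listed, 4 had rows, and the other 14 were not analysed here. Ifnb1 had 0, 0 and 3 reads in CKO and 0, 1 and 0 in WT, and Ifna7 had 1 read in all, in CKO 3. Both stand at or under the 3 reads that a count of 0 allows, so no level can be compared. Ifng, which encodes the type II interferon, had 5, 8 and 9 reads in CKO and 4, 4 and 3 in WT. In TPM its groups overlapped, at 0.140, 0.242 and 0.307 in CKO and at 0.156, 0.107 and 0.087 in WT (0.58 ± 0.28). The receptor gene Ifnar1 was at 97.6, 98.2 and 81.5 TPM in CKO and at 89.0, 91.1 and 98.2 TPM in WT (log2 difference -0.01 ± 0.10), and CKO 3, highest for most effectors, was the lowest library.

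Of 12 receptor and signalling genes, 10 had a difference above 0 and 0 were called. Stat2 was at 63.1, 78.9 and 93.6 TPM in CKO and at 57.7, 55.6 and 71.7 TPM in WT (0.34 ± 0.17), with WT 3 above CKO 1. Irf9, its DNA-binding partner, ranged from 59.0 to 77.8 TPM (0.12 ± 0.11). Irf7 was at 69.8, 80.0 and 126 TPM in CKO and at 75.3, 52.6 and 94.6 TPM in WT (0.30 ± 0.28), with CKO 3 highest and WT 2 lowest as for most effectors. Socs1, the feedback inhibitor, was low, at 1.06, 1.01 and 2.06 TPM in CKO and at 0.670, 0.600 and 0.887 TPM in WT. The groups were apart, with a difference of 0.79 ± 0.31.

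Other interferon-induced genes and upstream sensors outside the 35 were counted from lists. Over all 69 such pathway genes tested, signalling included, 60 had a difference above 0, 0 were called and the median was 0.14. Groups were apart and higher for 7 of the 69, beside 2.84% of all genes. Tlr3, the endosomal sensor of double-stranded RNA, was at 12.9, 13.5 and 15.4 TPM in CKO and at 10.7, 10.2 and 12.7 TPM in WT (0.31 ± 0.13). Trim21, a cytosolic antibody receptor, was at 48.1, 49.98 and 52.7 TPM in CKO and at 41.4, 41.5 and 46.4 TPM in WT (0.22 ± 0.08). Both had groups apart, by a narrow gap at WT 3. Ddx60, a helicase that aids RNA sensing, was at 15.5, 16.5 and 17.5 TPM in CKO and at 10.7, 8.48 and 17.1 TPM in WT (0.50 ± 0.25), with WT 3 inside the CKO range.

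A list of 23 genes known chiefly as targets of interferon gamma, among them Gbp2 and Irf1, was set beside the effectors, and 22 of them passed the filter on low values. All 22 differences were above 0, with a median of 0.83. Groups were apart and higher for 17 of the 22, against 1 of the 35 effectors and 2.84% of all genes. The rest overlapped, with small differences: Ciita (0.25 ± 0.18), Cd74 (0.03 ± 0.18), H2-Aa (0.08 ± 0.13), H2-Ab1 (0.14 ± 0.19) and H2-Eb1 (0.23 ± 0.46). By limma 0 were called in either list, with 17 of the 22 and 2 of the 35 at an unadjusted p under 0.05. The authors' deposited table calls 9 of the 23 higher at an adjusted p under 0.05, among them Gbp2 (adjusted p of 2.38e-07) and Irf1 (0.00683). It calls 0 of the 35 effectors higher, beside 0.242% of all listed genes. WT 3 lay below both CKO 1 and CKO 2 for 22 of the 22 and for 1 of the 35 effectors, against 45.4% of all genes. Within the sides the gamma list's medians were 0.23 and 1.33, where the effectors had -0.18 and 0.82. CKO 3 was the highest library for 16 of the 22 and WT 2 the lowest for 20, as for most effectors. The difference between the lists was not tested, and both were read in the same libraries. Both lists were chosen with earlier results of these data known, so the counts are descriptions only.

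Markers of other cells were read beside these results, as summed TPM over each list. Plasmacytoid dendritic cells, the main interferon producers, had all 10 markers detected, at 64.9 to 82.1 in CKO and 80.6 to 87.5 in WT. Most of that sum came from Tcf4, Ly6d and Spib. Siglech, a more specific marker, was at 4.07, 3.44 and 2.73 TPM in CKO and at 3.64, 2.05 and 4.47 TPM in WT, with the groups overlapping. Of the 10, 7 had a log2 difference below 0, among them Ly6d (-0.57 ± 0.23) and Spib (-0.46 ± 0.18). Klk1 alone had groups apart and lower, against 2.27% of all genes. It rests on 4, 6 and 2 reads in CKO and 8, 7 and 8 in WT. The authors' deposited table calls 0 of the 10. T and NK cell markers, 11 of 12 listed, summed to 6.63 to 10.6 in CKO and 3.03 to 4.87 in WT; of the 9 tested, 9 were above 0 and 7 had groups apart and higher, against 2.84% of all genes. The authors' deposited table calls 5 of the 11 higher, against 0.242% of all listed genes. Nkg7 was the largest part of the sum, at 3.99, 4.58 and 5.32 TPM in CKO and at 3.72, 2.53 and 3.35 TPM in WT. Others rest on few reads. Cd3e had 14, 17 and 10 reads in CKO and 2, 3 and 0 in WT. Gzmb had 12, 11 and 17 in CKO and 0, 1 and 1 in WT. Macrophage and monocyte markers, 12 of 12, summed to 18236 to 25465 in CKO and 32655 to 46731 in WT. Without Lyz2 the other 11 summed to 5004 to 6209 in CKO and 5219 to 6373 in WT, so the gap between the groups came from Lyz2. B lineage markers, 8 of 8, summed to 58.0 to 98.6 in CKO and 92.4 to 119 in WT. All 8 had a log2 difference below 0, with a median of -0.51. Of these, 2 had groups apart and lower, against 2.27% of all genes, and the authors' deposited table calls 0 of the 8. Neutrophil markers, 7 of 8, summed to 6829 to 7965 in CKO and 5712 to 8323 in WT. Conventional dendritic cell markers, 7 of 7, summed to 13.7 to 18.5 in CKO and 15.4 to 19.0 in WT. No marker with a row had 0 reads over all 6 libraries. The part of these cells in the effectors' levels was not tested.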

How the data were processed

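Bulk RNA of 3 CKO and 3 WT samples was measured. Reads were processed on mm10 with tools that, per the submitters' processing notes, include TopHat2 2.0.12, featureCounts from Subread, Picard 1.127, FastQC 0.11.2 and edgeR. How each was set, and which gene annotation was used, is not given in the sources used here. One gene table was deposited by the authors, with TPM per library, a unit read from the values, which sum to 1000000. Per the file headers it also holds the authors' log2 fold change, mean log2 CPM, likelihood ratio score, p-value and adjusted p-value, and a positive fold means higher in CKO, from the values. Whole reads were recovered from the TPM for 100% of 94034 values above 0, within 0.01 of a read, which gave the depths.

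Groups were compared with limma 3.58.1 in R 4.3.3 (mean-variance trend, two-sided, Benjamini-Hochberg) on log2(TPM + 0.1); genes needed 0.1 TPM or more in 3 or more libraries, and this scale understates the change of low genes. The script was tested on simulated data. Each p-value reflects the spread among these samples, which may be technical in part. Values in every library are given for members with a mean of at least 10 TPM and for the 2 members of each subfamily with the smallest p and a mean of at least 1 TPM. Of other pathway genes, some of the 4 with the smallest p in each list are named; Ifnar1, Irf7, Irf9, Ifnb1, Ifna7 and the gamma list's examples stand outside that rule and were chosen after their values were seen. The members and all lists were chosen with earlier results of these data known. Transcript identities are local alignments of the longest GENCODE M21 transcript. Alternatives were other pseudocounts, filters, scaling, limma-voom, a replicate block, the principal component side as a term, and libraries left out.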

Additional observations from a re-analysis of the deposited data

How the results depend on the processing

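Under other pseudocounts, other filters, median-of-ratios scaling, limma-voom on recovered reads, the replicate block and a term for the sides of the first component, all 35 members kept the sign of their difference and 0 were called. The count of members with groups apart was 0, not 1, under median-of-ratios scaling; it was not computed for the block and side fits. With the replicate block the median difference of the members was 0.29. Same-numbered samples did not deviate together (correlations -0.24, -0.15 and -0.53). The deviations also carry the first component, which sets CKO 3 against WT 3. They cannot show whether the numbers pair the samples. Without both CKO replicate 3 and WT replicate 3, 694 genes were called higher and 706 lower (5.06% and 5.15% of all genes). In that fit 5 members and 16 other pathway genes were called, the members higher. Groups were apart for 20 members, beside 29.8% of all genes apart and higher. Oas2 was then at 0.17, Oas3 at -0.13, Oasl1 at -0.28 and Usp18 at -0.054. With each library left out in turn, members with groups apart ranged from 1 to 20. There were 5 without CKO 1, 2 without CKO 2, 3 without WT 2 and 20 without WT 3. All were higher but 2 of the 3 without WT 2. Shares of all genes apart and higher were 4.78%, 5.42%, 7.04% and 10.7% in that order, with 4.83% lower without WT 2. The median of all members ran from 0.15 to 0.43, the Ifit median from 0.38 to 1.34 and the Mx median from 0.16 to 0.70. The Ifi200 median ran from 0.32 to 0.72, and the Isg15 system median from 0.17 to 0.51. For the other effectors the median ran from 0.14 to 0.40, for Oas from -0.060 to 0.33 and for RNA sensors from -0.0062 to 0.41. The same ranges were -0.088 to 0.14 for Oas1a, -0.068 to 0.38 for Oas1g, -0.23 to 0.13 for Oas2, -0.16 to 0.28 for Oas3, -0.32 to 0.58 for Oasl1, -0.0062 to 0.41 for Ddx58, -0.023 to 0.16 for Dhx58, -0.16 to 0.42 for Usp18, -0.048 to 0.33 for Isg20, -0.42 to 0.10 for Ifi27l2a and -0.049 to 0.30 for Rtp4. Depth was no limit for levels, since the lowest member value rests on 31 reads, but 3 libraries a group limit every comparison.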
